A study of Mus musculus with 6 samples.

Results

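The genes described here carry the oxygen-sensing and BMP4 signals of stress erythropoiesis, the emergency production of red cells in the mouse spleen. They are 10 named genes, all found by symbol among the 31771 gene identifiers of the count table: Hif1a, Epas1, Egln1, Egln3 and Vegfa on the hypoxia side, and Bmp4, Smad5, Kitl, Gdf15 and Ihh on the side of the signals sent to progenitors. Spleen RNA of 3 mutant and 3 WT mice was sequenced, all labelled as strain C57BL/6. The mutants carried VEC-Cre (Cre recombinase under the promoter of VE-cadherin, an endothelial adhesion molecule), the SB transposase and the onc2 transposon, which the Sleeping Beauty (SB) transposase moves to new genomic sites. The controls are labelled WT, with no allele named, and neither ages nor batches are given. Cre driven by the VE-cadherin promoter is known to mark also blood cells that arise from embryonic endothelium, and which cells carried the transposase here was not analysed.

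Cells sense oxygen through prolyl hydroxylases, among them the products of Egln1 and Egln3, which mark the HIF-alpha proteins (HIF1A and EPAS1, also called HIF2A) for destruction while oxygen is present. When oxygen falls, these proteins persist, pair with ARNT and switch on genes such as Vegfa and Egln3, so the transcripts of the HIF genes themselves do not measure HIF activity. In the mouse spleen, anaemia induces the secreted factor BMP4, which acts through the signal transducer SMAD5 on immature progenitors together with KIT ligand (Kitl), hypoxia and a Hedgehog signal that makes progenitors responsive to BMP4.

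Of the 10 genes, 1 fell in the mutant spleens: Epas1, at 0.31 to 0.509 of the WT mean in the 3 mutants. None rose by edgeR's quasi-likelihood test at an adjusted p under 0.05. At an unadjusted p under 0.05 by the same test, 1 of the 10 was higher, Egln3, and 3 were lower. Of all 19573 genes, 3169 were higher and 2945 lower at that threshold. DESeq2 and limma-voom, which called 14.9% and 5.16% of all genes higher, also called 0 of the 10 higher, but DESeq2 gave Egln3 no p and so could not call it. Limma-voom called 1 lower, Epas1, against 10.2% of all genes, and DESeq2 called 3 lower, Epas1, Smad5 and Bmp4, against 14.7%. Bmp4, Smad5 and Hif1a were lower in every mutant than in any WT spleen without passing the test. Other genes stood apart in single animals: Egln3 was 41.7-fold above the WT mean in mutant 1, and Vegfa and Egln1 were highest in mutant 3. All 10 genes passed the filter on low counts. Among all 19573 genes tested, 5.08% were called higher and 6.90% lower, so by edgeR 1 gene called lower of 10 is close to the background. Of the 10 genes, 1 was higher without overlap and 4 were lower without overlap, against 18.0% and 22.6% of all genes tested. P-values measure the spread between these animals, whose litters and batches the labels do not give.

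**Figure D1:**
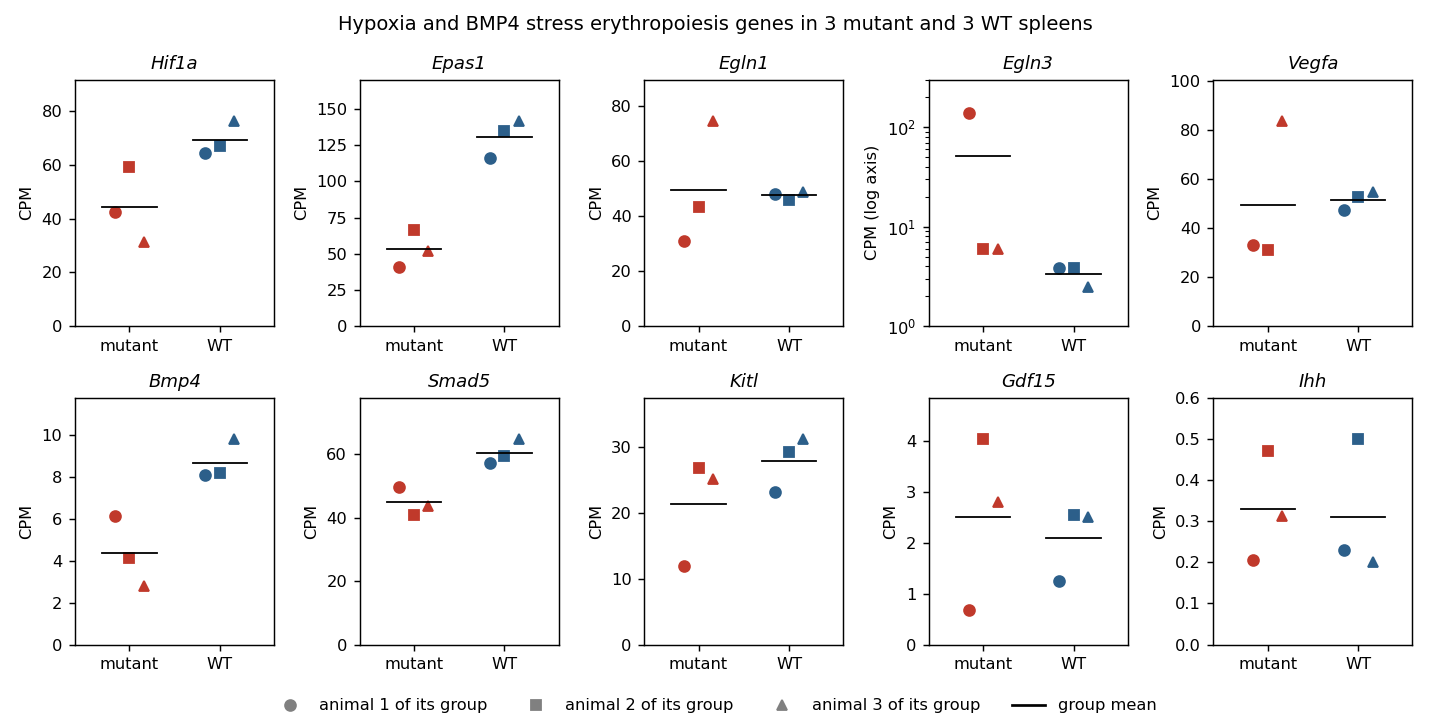
CPM (the count of a gene scaled by the total count of its library) of the 10 genes in each spleen, with 1 panel a gene, the 3 mutants on the left, the 3 WT spleens on the right and a line at each group mean; the Egln3 axis is logarithmic and all others start at 0. Epas1, Hif1a, Bmp4 and Smad5 are lower in all 3 mutants than in any WT spleen, and Egln3 reaches 140.2 CPM in mutant 1 alone.

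Promoters of 9 of the 10 genes were available as 13 windows from 250 bases before to 50 after a start site (RefSeq, GRCm38.p6), and those of Egln3, Egln1 and Bmp4 are shown as examples of the hydroxylases and of the BMP signal. Capitals mark ACGTG, the core of the hypoxia response element, or its reverse complement CACGT. Egln3 is on the minus strand at chr12:54203825-54204124, Egln1 on the minus strand at chr8:124949205-124949504 and Bmp4 on the minus strand at chr14:46390620-46390919.
Egln3: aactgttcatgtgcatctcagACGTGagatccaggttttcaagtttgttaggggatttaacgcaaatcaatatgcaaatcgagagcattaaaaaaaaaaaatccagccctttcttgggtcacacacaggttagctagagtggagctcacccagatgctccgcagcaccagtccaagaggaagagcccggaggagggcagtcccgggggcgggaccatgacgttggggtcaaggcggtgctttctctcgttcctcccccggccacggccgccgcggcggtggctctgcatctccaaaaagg
Egln1: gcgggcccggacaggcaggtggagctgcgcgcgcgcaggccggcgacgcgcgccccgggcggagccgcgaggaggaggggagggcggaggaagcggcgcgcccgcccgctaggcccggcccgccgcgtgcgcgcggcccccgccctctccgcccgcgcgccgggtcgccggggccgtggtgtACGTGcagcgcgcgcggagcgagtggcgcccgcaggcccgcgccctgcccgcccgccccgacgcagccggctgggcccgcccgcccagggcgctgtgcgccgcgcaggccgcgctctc
Bmp4: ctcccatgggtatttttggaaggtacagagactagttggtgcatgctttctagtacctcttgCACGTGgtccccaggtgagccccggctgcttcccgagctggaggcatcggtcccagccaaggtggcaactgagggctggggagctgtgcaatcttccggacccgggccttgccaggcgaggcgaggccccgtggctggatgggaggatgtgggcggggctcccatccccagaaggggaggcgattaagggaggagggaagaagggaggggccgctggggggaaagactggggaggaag

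The core ACGTG, searched on both strands, was found in 6 of the 13 windows, against 19.6% of all 32851 windows. Those 6 windows belong to Hif1a, Egln1, Egln3, Vegfa, Bmp4 and Gdf15, with 1 window each. In Bmp4 the capitals read CACGTG, where the matches on the 2 strands overlap, beginning at base 63 of the window. The single match in Egln3 begins at base 22 and that in Egln1 at base 183. The variant core GCGTG was found in 5 of the 13 windows, against 32.4% of all windows, and the GATA core AGATAA in 2, against 11.2%. A match is a description of letters within the window and is not evidence of a bound site.

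The libraries held 72902118 to 79258116 counts, so the least abundant of the 10 genes, Ihh, had 15 to 39 counts a library and each of the others at least 49. Libraries of 1 group differed by more than sampling noise, with a chi-square per gene of 22 to 86.2 between WT spleens and 738 to 1490 between mutants. The biological coefficient of variation was 72.8% in mutants and 17.1% in WT spleens. Mutants 1 and 2 expressed Xist, the RNA that silences an X chromosome, and mutant 3 and the WT spleens expressed the Y-linked gene Ddx3y, so the groups also differed in sex. Tlx1, a transcription factor that spleen development requires, was detected in all 6 libraries, at 8.48 to 13.9 CPM in mutants and 27.4 to 31.3 CPM in WT spleens. The 6 B-cell markers summed to 42.3 to 98.7 CPM in mutants and 4977 to 5586 CPM in WT spleens, with none at 0, and in RNA from whole tissue fewer cells of a type and less RNA per cell cannot be told apart. Overlapping genes added little to the 10: the antisense transcript Gm15283 at Hif1a had 113 counts over the 6 libraries, and Gm15217 and Gm15222 at Bmp4 had 11 and 155.

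The levels of the 10 genes were ordered per kilobase of exon, which allows genes of different length to be compared. In WT spleens Epas1 led with 23.4 ± 2.47 CPM per kilobase (SD, n = 3). Egln1, Vegfa and Hif1a followed at 13.2 ± 0.409, 12 ± 0.884 and 11.8 ± 1.07 CPM per kilobase. These 3 genes overlapped with each other, but not with Epas1 above them or Smad5 below them. Smad5 stood at 8.15 ± 0.526, Kitl at 4.72 ± 0.705 and Bmp4 at 3.86 ± 0.428 CPM per kilobase, of which Kitl and Bmp4 overlapped. Egln3 and Gdf15 overlapped as well, at 1.26 ± 0.287 and 1.13 ± 0.40 CPM per kilobase, and Ihh was lowest at 0.102 ± 0.0541. The order differed in every mutant, and Epas1 led in none of them. In mutant 1 Egln3 was first at 52.7 CPM per kilobase, with Epas1 at 7.27. In mutant 2 Egln1 was just above Epas1, which was at 11.9 CPM per kilobase. In mutant 3 Egln1 and Vegfa led at 20.7 and 19.5 CPM per kilobase, with Epas1 at 9.31.

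Hif1a encodes the broadly expressed oxygen-regulated subunit (ENSMUSG00000021109, chr12:73901375-73947530 on GRCm38). It was at 42.4, 59.1 and 31.3 CPM in mutants 1, 2 and 3, against 64.5, 67.2 and 76.5 CPM in the WT spleens. Every mutant was below every WT spleen, with mutant 2 close to them and mutant 3 lowest. The fitted log2 fold change was -0.62 ± 0.29 (SE), which did not pass (adjusted p = 0.200 by edgeR's quasi-likelihood test). Without mutant 2 the log2 fold change of Hif1a was -0.94 and passed the threshold (adjusted p = 0.0211). In that fit 15.3% of all genes were called lower. Hif1a passed in none of the other alternatives.

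Epas1 encodes the HIF-alpha subunit abundant in endothelium, and in mice it drives erythropoietin production (ENSMUSG00000024140, chr17:86753700-86833410). Its level was 40.6, 66.6 and 52.0 CPM in mutants 1, 2 and 3, against 116, 135 and 142 CPM in the WT spleens. The groups did not overlap, and the highest mutant was well below the lowest WT spleen. Its fitted log2 fold change was -1.28 ± 0.25 (SE, adjusted p = 0.0281 by edgeR). The call was lost without WT spleen 1, 2 or 3 (adjusted p = 0.115, 0.135 and 0.140), fits in which 0.636%, 0.581% and 0.627% of all genes were called lower. It was also lost without mutant 3 (adjusted p = 0.0656, with 6.17% of all genes called lower) and with sex as a term (adjusted p = 0.0909, with 4.97%), and held without mutant 1 or 2 (with 9.47% and 15.3%). The log2 fold change stayed between -1.53 and -1.10 over all alternatives.

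The fall of Epas1 was set beside 10 endothelial markers, which summed to 437 to 822 CPM in mutants and 567 to 638 CPM in WT spleens, with none at 0 in any library. Among them 1 fell and 1 rose. Pecam1, an adhesion molecule of endothelium that platelets and leukocytes also carry, fell to 148, 123 and 126 CPM in mutants 1, 2 and 3, against 292, 312 and 318 CPM in WT spleens (log2 fold change -1.21 ± 0.16, adjusted p = 0.0122). Egfl7, a secreted endothelial protein, rose (log2 fold change 0.74 ± 0.17, adjusted p = 0.0454). Cdh5, which encodes VE-cadherin itself, was at 44.1, 42.6 and 164 CPM in mutants 1, 2 and 3, against 38.9, 41.4 and 44.6 CPM in WT spleens. The markers differed among themselves within each animal. Kdr was at 0.494, 0.509 and 2.43 times its WT mean in mutants 1, 2 and 3, Cldn5 at 0.767, 0.704 and 2.08 times and Tek at 5.24, 1.03 and 3.14 times. The median log2 difference of the 10 markers from the WT mean was 0.24, -0.15 and 1.16 in mutants 1, 2 and 3, beside -1.69, -0.85 and -1.34 for Epas1. The 12 markers of splenic stroma and smooth muscle had medians of -2.16, -0.98 and -1.45 in the same animals. The part of endothelial or stromal content in the Epas1 result was not tested.

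**Figure D2:**
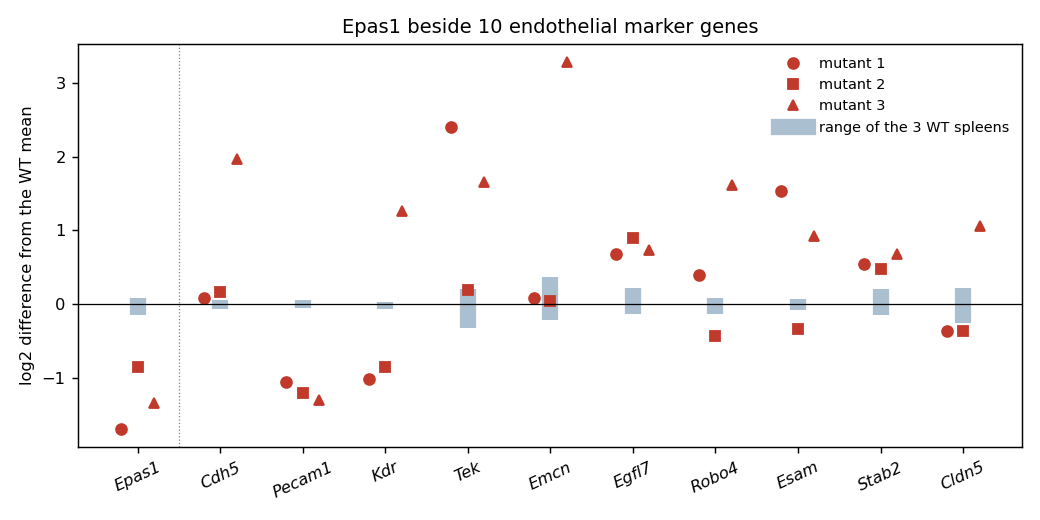
Log2 difference of each mutant spleen from the WT mean for Epas1 and for 10 endothelial marker genes, with bars for the range of the 3 WT spleens. Epas1 and Pecam1 lie below the WT range in all 3 mutants, while Cdh5, Kdr and Emcn are above it in mutant 3.

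Egln1 encodes the main prolyl hydroxylase of oxygen sensing (ENSMUSG00000031987, chr8:124908587-124949324). It was at 30.9, 43.1 and 74.5 CPM in mutants 1, 2 and 3, against 47.9, 45.8 and 48.6 CPM in WT spleens. The WT spleens lay within a narrow band, with mutant 1 below it, mutant 2 just below it in CPM and at its lower edge after TMM scaling, and mutant 3 above it. The group difference was near 0 (log2 fold change 0.06 ± 0.32, adjusted p = 0.911), and it turned negative without mutant 3 (-0.31) and with upper-quartile factors (-0.05).

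Egln3 encodes a hydroxylase that HIF itself induces (ENSMUSG00000035105, chr12:54178981-54203860). It reached 140.2 CPM in mutant 1, with 5.96 and 5.95 CPM in mutants 2 and 3, against 3.79, 3.82 and 2.49 CPM in WT spleens. All mutants were above all WT spleens, but mutant 1 stood 41.7-fold and mutants 2 and 3 each 1.77-fold above the WT mean. The log2 fold change was 3.89 ± 1.38 and did not pass (adjusted p = 0.118), and DESeq2 gave no p for this gene. Without mutant 1 it was 0.85 (adjusted p = 0.131), so the size of the group value rests on that animal.

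Vegfa encodes the growth factor of endothelium and a target of HIF (ENSMUSG00000023951, chr17:46016993-46032369). Its level was 33.2, 31.1 and 83.6 CPM in mutants 1, 2 and 3, against 47.3, 52.6 and 54.7 CPM in WT spleens. Mutants 1 and 2 were below the WT range and mutant 3 above it, as for Egln1. The log2 fold change was -0.07 ± 0.39 (adjusted p = 0.915). It was -0.64 without mutant 3 (adjusted p = 0.0575) and 0.65 with sex as a term (adjusted p = 0.0785), a fit in which the male mutant 3 alone carries the genotype effect. Egln3, unlike these, was not highest in mutant 3.

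**Figure D3:**
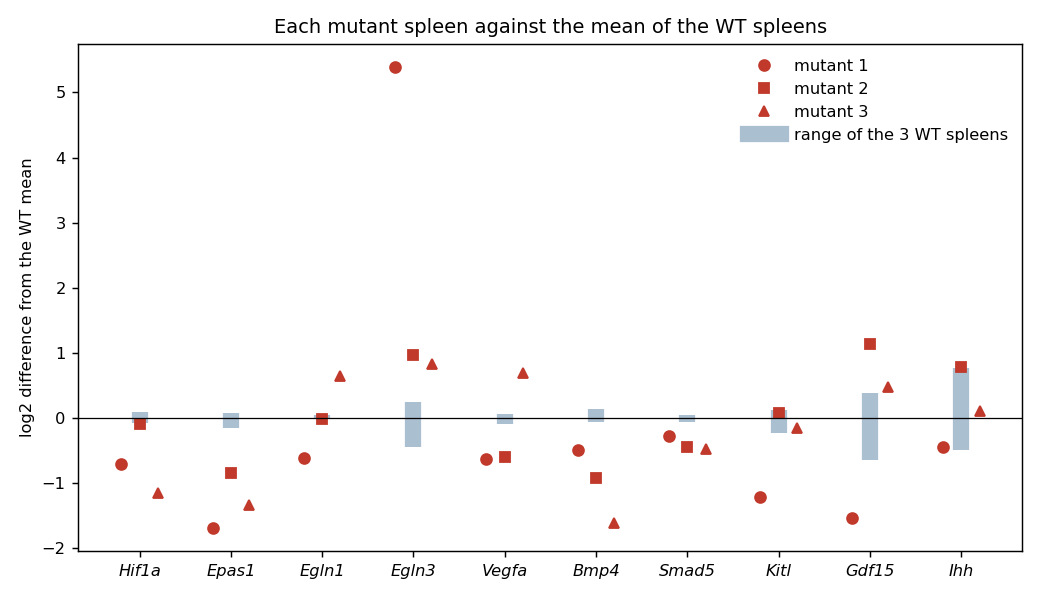
Log2 difference of each mutant spleen from the mean of the WT spleens for the 10 genes (symbols), with bars for the range of the 3 WT spleens. Mutant 1 stands apart for Egln3 (5.39), and Egln1 and Vegfa lie above the WT range in mutant 3 (0.64 and 0.69) and, for Vegfa, below it in mutants 1 and 2.

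Bmp4 encodes the secreted ligand of the stress response (ENSMUSG00000021835, chr14:46383520-46390669). It was at 6.15, 4.15 and 2.81 CPM in mutants 1, 2 and 3, against 8.09, 8.16 and 9.79 CPM in WT spleens. The groups did not overlap, and mutant 3 was lowest at 0.324 of the WT mean. At -0.97 ± 0.38 the log2 fold change did not pass by edgeR (adjusted p = 0.144), but passed by DESeq2 (log2 fold change -0.96, adjusted p = 0.0426), which called 14.7% of its genes lower. Over all alternatives the log2 fold change of Bmp4 ranged from -1.67 to -0.72. None of the 3 mutants had more Bmp4 than any WT spleen.

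Smad5 encodes the transducer that carries the BMP4 signal to the nucleus (ENSMUSG00000021540, chr13:56703010-56742377). Mutants 1, 2 and 3 had 49.8, 40.8 and 43.7 CPM, against 57.1, 59.5 and 64.7 CPM in WT spleens. The groups did not overlap, and of the 10 genes this was the most even among mutants (44.8 ± 4.6 CPM in mutants and 60.5 ± 3.90 CPM in WT spleens, SD, n = 3 each). Its log2 fold change was -0.42 ± 0.15 (adjusted p = 0.119 by edgeR, and 0.0268 by DESeq2, which thus called it lower).

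Kitl encodes stem cell factor, the ligand of the receptor KIT on progenitors (ENSMUSG00000019966, chr10:100015630-100100416). Its level was 11.9, 26.9 and 25.2 CPM in mutants 1, 2 and 3, against 23.2, 29.3 and 31.2 CPM in WT spleens. Only mutant 1 lay outside the WT range, at 0.426 of the WT mean. Its log2 fold change was -0.36 ± 0.36 (adjusted p = 0.526). Kitl and Bmp4 are made by stromal and endothelial cells among others. The 12 markers of splenic stroma and smooth muscle summed to 185, 544 and 325 CPM in mutants 1, 2 and 3 and to 1013 to 1214 CPM in WT spleens, with none at 0, and 6 of the 12 fell. None of the 12 was called higher, but not all were lower. Pdgfrb was at 39.5, 46.5 and 66.3 CPM in mutants 1, 2 and 3, above the 32.8 to 37.2 CPM of WT spleens. Col1a1 was at 0.374, 2.03 and 1.21 times its WT mean in mutants 1, 2 and 3. The part of stromal content in the levels of Kitl and Bmp4 was not tested.

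Gdf15 encodes a secreted factor of stressed cells and of maturing erythroblasts (ENSMUSG00000038508, chr8:70629393-70632456). It was at 0.672, 4.03 and 2.80 CPM in mutants 1, 2 and 3, against 1.24, 2.55 and 2.5 CPM in WT spleens. Mutant 1 was below and mutants 2 and 3 above the WT range. The group difference did not pass (log2 fold change 0.29 ± 0.71, adjusted p = 0.809). The 11 erythroid markers summed to 3605, 24441 and 3352 CPM in mutants 1, 2 and 3, against 29642, 28954 and 18797 CPM in the WT spleens, with none at 0. Their median log2 difference from the WT mean was -0.83, 2.58 and 0.97 in mutants 1, 2 and 3. That is the order of Gdf15 in these mutants, but the sum of the markers was lowest in mutant 3. WT spleen 1 had the highest sum and the lowest Gdf15 of the WT spleens. The part of erythroid content in the level of Gdf15 was not tested.

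Ihh encodes Indian hedgehog, a Hedgehog ligand (ENSMUSG00000006538, chr1:74945315-74951672). It had 15, 35 and 24 counts in mutants 1, 2 and 3, against 17, 39 and 16 counts in WT spleens, at most 0.50 CPM in any library. The groups overlapped fully (log2 fold change 0.10 ± 0.59, adjusted p = 0.921), and counts this low leave a wide error on the difference.

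The gene with the profile nearest to each of the 10 was found among 10824 genes by the root mean square distance of log2 levels over the 6 libraries. Adgrg1, an adhesion receptor found on blood stem cells, was nearest to Egln3 (distance 0.223). It was at 1424 CPM in mutant 1, 62.8 and 51.9 CPM in mutants 2 and 3, and 32.1 to 46.2 CPM in WT spleens. Adnp2 was nearest to Egln1 (0.027) and Akap12, a scaffold protein for kinases, to Vegfa (0.088). Plekhm1, a regulator of lysosome traffic, was nearest to Epas1 (0.084), Cplane1, a gene of the primary cilium, to Hif1a (0.079), Sfxn4, a mitochondrial protein, to Bmp4 (0.055) and Ap5z1 to Smad5 (0.038). Phldb2 was nearest to Kitl (0.061), Cd5l, a secreted macrophage protein, to Gdf15 (0.224) and Gnpda1, an enzyme of amino sugars, to Ihh (0.198). With 6 libraries these are descriptions of likeness.

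The surrounding pathways were described through 9 lists with 166 genes found, of which 160 passed the filter, the 10 genes included. Of these, 18 rose and 11 fell, which is 11.2% and 6.88% of those tested, against 5.08% and 6.90% of all genes tested. The median log2 fold change was 0.10, as over all genes (0.10). Without any single WT spleen none of them was called higher by edgeR and 1 or 2 were called lower. In the same fits only 4 to 8 of all genes were called higher.

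The oxygen-sensing list had 15 members tested, of which 1 rose and 1, Epas1, fell. Its median was 0.06 on the log2 scale. Cited2, which competes with HIF for its coactivators, rose to 153, 89.2 and 211 CPM in mutants 1, 2 and 3, against 40.6, 44.5 and 46.8 CPM in WT spleens (log2 fold change 1.77 ± 0.29, adjusted p = 0.0198). It was the 1 gene of the list called higher, with every mutant well above the WT range. Hif1an, the asparagine hydroxylase that silences HIF, was at 35, 46.2 and 47.0 CPM in mutants and 68.1 to 73.3 CPM in WT spleens (adjusted p = 0.0575). Vhl, which captures hydroxylated HIF, was at 25.3 to 37.2 CPM in mutants and 39.9 to 42.9 CPM in WT spleens (adjusted p = 0.168). Elob, a partner of VHL in its ubiquitin ligase, was the most abundant member that did not pass (138 ± 9.10 CPM in mutants and 122 ± 1.38 CPM in WT spleens, SD, n = 3 each).

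Of 31 HIF target genes 5 rose and 1 fell. The list's median was 0.52 on the log2 scale, with medians of 0.53, 0.55 and 0.58 in mutants 1, 2 and 3. The 5 that rose were Slc16a3, Tpi1, Mxi1, Ldha and Angptl4. Slc16a3, the lactate exporter of glycolytic cells, rose to 27.8, 30.0 and 32.6 CPM in mutants 1, 2 and 3, against 8.38, 9.25 and 9.21 CPM in WT spleens (log2 fold change 1.76 ± 0.19, adjusted p = 0.00764). Tpi1, a glycolytic enzyme, rose to 242 ± 65.8 CPM in mutants, against 87.4 ± 1.80 CPM in WT spleens (SD, n = 3 each, log2 fold change 1.47 ± 0.22, adjusted p = 0.0152). Ldha, which makes lactate, rose by 1.44 ± 0.30 on the log2 scale (adjusted p = 0.0335).

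Stc2, a secreted glycoprotein, was the target that fell (log2 fold change -1.13 ± 0.26, adjusted p = 0.0410). Other classical targets differed between the mutants. Slc2a1, a glucose transporter of many tissues, was at 76.3, 21 and 22.5 CPM in mutants 1, 2 and 3, against 61.4, 56.6 and 57.0 CPM in WT spleens (adjusted p = 0.509). Car9, a surface carbonic anhydrase, was at 15.4, 6.49 and 3.39 CPM in mutants 1, 2 and 3 and 3.38 to 3.90 CPM in WT spleens (adjusted p = 0.216). Eno1 was the most abundant target that did not pass, at 386, 480.5 and 974 CPM in mutants and 305 to 340.2 CPM in WT spleens. More than 2-fold above the WT mean were 11, 9 and 7 of the 31 targets in mutants 1, 2 and 3, against 18.4%, 17.5% and 16.4% of all genes. Several of the targets that rose also serve glycolysis in dividing cells, and which cells carried them was not tested.

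**Figure D4:**
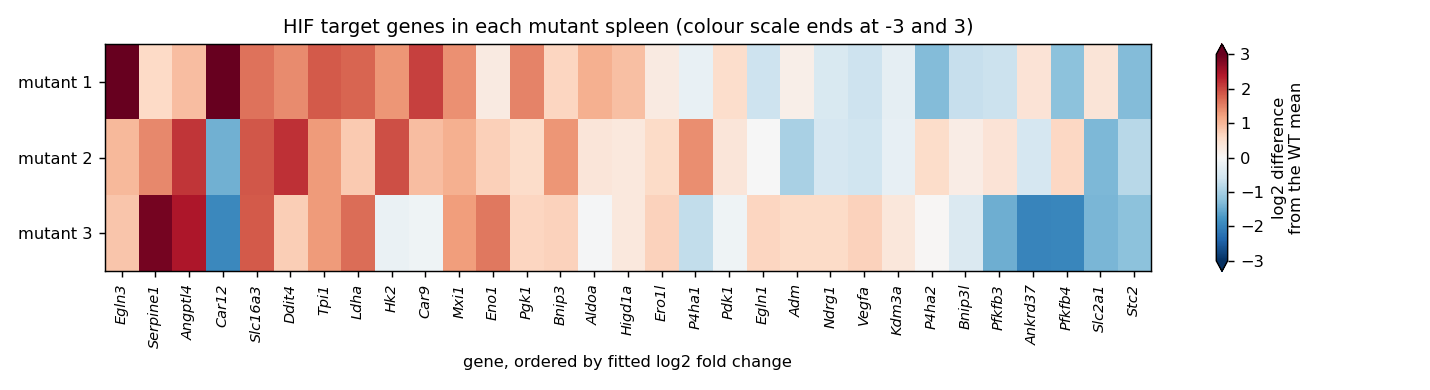
Log2 difference from the WT mean of 31 HIF target genes, Egln1, Egln3 and Vegfa among them, in mutants 1, 2 and 3, ordered by the fitted fold change, with colours that end at -3 and 3. Slc16a3, Tpi1 and Ldha are raised in all 3 rows, whereas Car9 and Car12 are raised most in mutant 1 and Vegfa and Egln1 in mutant 3.

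None of the 14 genes of the VEGF and angiopoietin list passed by edgeR in either direction. At an unadjusted p under 0.05, 4 were higher and 0 lower, against 3169 and 2945 of all 19573 genes. DESeq2 called 3 higher and 1 lower, against 14.9% and 14.7% of all genes. Limma-voom called 0 in either direction, against 5.16% higher and 10.2% lower of all genes. Single animals stood apart here too. Angpt1, the ligand that stabilises vessels, was at 263 CPM in mutant 1, 16.9 and 6.31 CPM in mutants 2 and 3, and 5.19 to 8.25 CPM in WT spleens. Kdr, the main receptor of VEGFA, was at 20.8, 21.4 and 102 CPM in mutants 1, 2 and 3, against 39.6 to 44.6 CPM in WT spleens, and so was highest in the animal with the highest Vegfa. Tie1, an endothelial receptor, was at 153, 34.9 and 81.0 CPM in mutants and 33.7 to 41.0 CPM in WT spleens (adjusted p = 0.153).

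In the list of BMP ligands and antagonists 2 of 15 members fell and none rose by edgeR, against 6.90% and 5.08% of all genes. At an unadjusted p under 0.05, 1 was higher, against 3169 of all 19573 genes. DESeq2 called 1 higher and limma-voom 0, against 14.9% and 5.16% of all genes. The list's median was -0.48 on the log2 scale. Bmp7, a ligand related to BMP4, fell to 0.0960, 0.497 and 0.352 CPM in mutants 1, 2 and 3, against 3.42, 2.18 and 3.85 CPM in WT spleens (log2 fold change -3.28 ± 0.70, adjusted p = 0.0349). Grem1, a secreted antagonist of BMP4, fell to 0.412, 0.914 and 2.11 CPM in mutants, against 9.91, 6.22 and 8.88 CPM in WT spleens (log2 fold change -2.86 ± 0.65, adjusted p = 0.0421). Over the same animals the 12 stroma and smooth muscle markers summed to 185 to 544 CPM in mutants and 1013 to 1214 CPM in WT spleens, with 6 of 12 lower, and their part in the falls of Bmp7 and Grem1 was not tested. Twsg1, a BMP-binding protein and the most abundant member, did not pass (45.1 ± 12.2 CPM in mutants and 39.1 ± 7.14 CPM in WT spleens, SD, n = 3 each).

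Among 21 BMP receptors, SMAD proteins and targets, 2 rose and 2 fell, and the list's median was -0.20 on the log2 scale. Bmpr2, the type 2 receptor of BMP ligands, rose to 47.9, 48.9 and 57.7 CPM in mutants 1, 2 and 3, against 18.8, 19.3 and 22.1 CPM in WT spleens (log2 fold change 1.37 ± 0.17, adjusted p = 0.00944). Eng, the coreceptor endoglin of endothelium and early erythroid cells, rose to 198 ± 51.5 CPM in mutants, against 96.4 ± 9.43 CPM in WT spleens (SD, n = 3 each, log2 fold change 1.04 ± 0.21, adjusted p = 0.0322).

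Id3, a transcriptional regulator that BMP signals induce, fell to 15.4, 9.57 and 18.4 CPM in mutants 1, 2 and 3, against 133, 122 and 134 CPM in WT spleens (log2 fold change -3.17 ± 0.25, adjusted p = 0.00305). It passed in all 6 fits that left out 1 library. Id3 is also expressed in lymphocytes, whose B-cell markers are given above, and the part of lymphocyte content in its fall was not tested. Id1, another BMP target, was at 39.9, 7.29 and 34.4 CPM in mutants 1, 2 and 3, against 15.9 to 18.0 CPM in WT spleens (adjusted p = 0.462). Smurf1, a ubiquitin ligase that removes BMP SMAD proteins, fell (log2 fold change -1.28 ± 0.31, adjusted p = 0.0472), a call that was kept in only 1 of the 6 fits with a library left out and was lost with sex as a term. The shared partner Smad4 was at 20.8 to 40.6 CPM in mutants and 50.1 to 57.7 CPM in WT spleens (adjusted p = 0.110), and Id2, the most abundant member that did not pass, at 11.6 to 71.5 CPM in mutants and 80.0 to 102 CPM in WT spleens (adjusted p = 0.427).

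Of 15 Hedgehog genes 2 fell and none rose by edgeR, against 6.90% and 5.08% of all genes. At an unadjusted p under 0.05, 0 were higher, against 3169 of all 19573 genes. DESeq2 and limma-voom each called 0 higher, against 14.9% and 5.16% of all genes. The list's median was -0.25 on the log2 scale. Gli1, the transcription factor that Hedgehog signalling induces, fell to 0.137, 0.108 and 0.156 CPM in mutants 1, 2 and 3, against 0.785, 0.680 and 1.26 CPM in WT spleens (log2 fold change -2.74 ± 0.45, adjusted p = 0.0187). Cdon, a coreceptor of Hedgehog ligands, fell to 1.51, 2.85 and 3.15 CPM in mutants, against 21.1, 17.1 and 21.4 CPM in WT spleens (log2 fold change -2.97 ± 0.38, adjusted p = 0.0107). The sum of the stroma and smooth muscle markers given above was lower in the same mutants, though Pdgfrb among them was higher. The part of stromal content in the falls of Gli1 and Cdon was not tested. Ptch1, the receptor and another target of the pathway, was at 21.5, 14.5 and 40.4 CPM in mutants 1, 2 and 3, against 27.1 to 36.1 CPM in WT spleens (adjusted p = 0.657). Sufu, an inhibitor of GLI proteins and the most abundant member, was at 37.8 ± 12.3 CPM in mutants and 57.1 ± 3.09 CPM in WT spleens (SD, n = 3 each, adjusted p = 0.161).

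In the list of GDF, TGF-beta and activin genes, 1 of 15 rose and 1 fell. Gdf3, a ligand of early embryos that is related to Gdf15 only within the wider superfamily, rose to 200.5, 33.3 and 130.3 CPM in mutants 1, 2 and 3, against 1.34, 1.73 and 1.79 CPM in WT spleens (log2 fold change 6.21 ± 0.72, adjusted p = 0.00894). Gdf11, a ligand once proposed to hold back late erythroid maturation, fell to 1.73, 1.53 and 0.664 CPM in mutants, against 33.9, 26.7 and 39.2 CPM in WT spleens (log2 fold change -4.64 ± 0.47, adjusted p = 0.00696). Gdf15 itself, with its group means of 2.5 ± 1.7 CPM in mutants and 2.1 ± 0.74 CPM in WT spleens (SD, n = 3 each), shared neither direction. Tgfb1 was the most abundant member that did not pass (486 ± 133 CPM in mutants and 339 ± 25.5 CPM in WT spleens, SD, n = 3 each).

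Gdf15 is induced by the integrated stress response, a pathway that slows translation and activates ATF4. Of its 18 genes 4 rose (Eif2ak2, Asns, Sesn2 and Psat1) and 2 fell. Eif2ak2, the kinase PKR, rose to 35.7, 50.4 and 48.8 CPM in mutants 1, 2 and 3, against 14.2, 17.0 and 16.3 CPM in WT spleens (log2 fold change 1.52 ± 0.22, adjusted p = 0.0150). Asns, which makes asparagine, rose to 35.4, 79.7 and 104 CPM in mutants, against 15.5 to 17.7 CPM in WT spleens (adjusted p = 0.0276). Eif2ak3, the kinase PERK of the endoplasmic reticulum, fell (log2 fold change -1.14 ± 0.19, adjusted p = 0.0192), as did Slc7a11, the cystine transporter (log2 fold change -2.99 ± 0.59, adjusted p = 0.0289). Atf4 was at 229 ± 41.7 CPM in mutants and 254 ± 16.6 CPM in WT spleens (SD, n = 3 each, adjusted p = 0.689), and the haem-sensing kinase gene Eif2ak1 was at 95, 268 and 129 CPM in mutants 1, 2 and 3, against 93.3 to 120.4 CPM in WT spleens (adjusted p = 0.389).

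Of 19 tested genes of the stem cell factor and stress progenitor list 5 rose and none fell by edgeR. The shares of all genes were 5.08% and 6.90%. Those that rose were Tal1, Zfp36l2, Erfe, Gfi1b and Epor, and the list median, 1.10, was the highest. At an unadjusted p under 0.05, 2 were lower, against 2945 of all 19573 genes. DESeq2 and limma-voom each called 1 lower, against 14.7% and 10.2% of all genes. The 6 megakaryocyte markers, with none at 0, summed to 3053, 1059.9 and 4621 CPM in mutants 1, 2 and 3. Their sum in WT spleens was 334 to 623 CPM. Of the 6, 3 rose (Pf4, Itga2b and Vwf). Itga2b alone was at 1920.1, 197 and 2944 CPM in mutants 1, 2 and 3. Ppbp was at 203, 411 and 31.3 CPM in these mutants, against 118 to 230 CPM in WT spleens (adjusted p = 0.878 by edgeR). Of the 11 erythroid markers 1 rose, and their median log2 difference from the WT mean was -0.83, 2.58 and 0.97 in mutants 1, 2 and 3. The part of megakaryocyte or erythroid content in the rise of the 5 genes was not tested. Zfp36l2, an RNA-binding protein that keeps early erythroid progenitors renewing, rose to 409.6, 248 and 347 CPM in mutants 1, 2 and 3, against 151 to 166 CPM in WT spleens (log2 fold change 1.10 ± 0.21, adjusted p = 0.0263). Tal1, a transcription factor of early erythroid cells and megakaryocytes, rose by 3.09 ± 0.40 on the log2 scale (adjusted p = 0.0117). Erfe, the erythroblast hormone that acts on iron supply, rose to 17.0, 61.9 and 5.80 CPM in mutants 1, 2 and 3, against 0.311, 0.603 and 0.101 CPM in WT spleens (adjusted p = 0.0286).

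Kit, the receptor of the Kitl product, was at 127, 29.2 and 108 CPM in mutants 1, 2 and 3, against 34.2 to 42.4 CPM in WT spleens (adjusted p = 0.165). Thus mutant 1 combined the lowest Kitl with the highest Kit. Nr3c1, the glucocorticoid receptor that sustains stress progenitors, was at 38.3, 77.2 and 47.5 CPM in mutants, against 89.1 to 109 CPM in WT spleens (adjusted p = 0.146). Alas2, the erythroid enzyme of haem synthesis and the most abundant member, was at 72.9, 1365 and 458 CPM in mutants 1, 2 and 3, against 831 to 1416 CPM in WT spleens (adjusted p = 0.590).

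Epo, the kidney hormone that Epas1 drives in mice, had 740 counts (9.64 CPM) in mutant 3 and 0 counts in each of the other 5 libraries, where a count of 0 allows at most 3 counts, or 0.0379 to 0.0412 CPM. The gene of its receptor, Epor, was at 1.85, 4.78 and 7.70 times the WT mean of 34.8 CPM in mutants 1, 2 and 3 (log2 fold change 2.25 ± 0.55, adjusted p = 0.0499). The calls of Epor and Gfi1b were each kept in only 1 of the 6 fits with a library left out. Mutant 3, the library with Epo transcripts, had the highest Vegfa and Egln1 of all 6 libraries and an Epas1 level of 52.0 CPM, below every WT spleen. Epo did not pass the filter and was not tested.

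**Figure D5:**
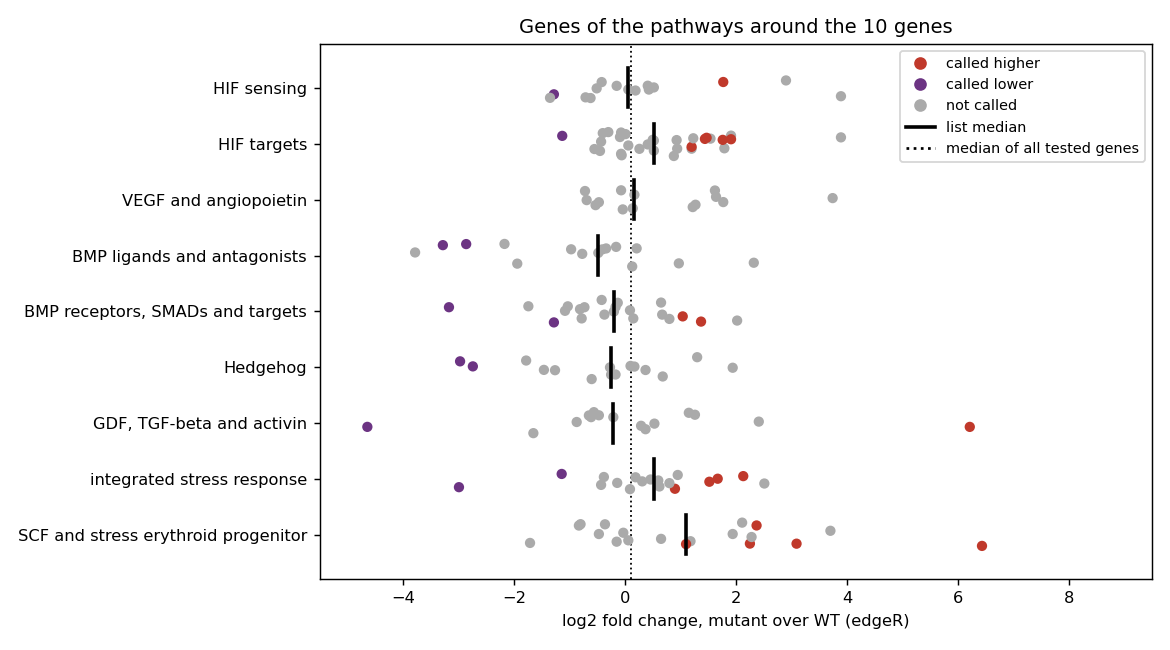
Fitted log2 fold change of mutant over WT for the tested genes of 9 pathway lists, 1 point a gene, coloured by the edgeR call, with a bar at each list median and a dotted line at the median of all tested genes (0.10). The stress progenitor list has the highest median (1.10) and the list of BMP ligands and antagonists the lowest (-0.48).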

How the data were processed

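RNA of 3 mutant and 3 WT spleens went through poly-A selection and a stranded kit, per the labels' protocols. The authors deposited whole-number counts per Ensembl gene, without normalization. The submitters' processing notes name STAR 2.5.3a, mm10, GRCm38 and limma without roles. How strand and shared reads were treated, and which annotation was used, is not given in the sources used here. Every column carried the title of a single sample.

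Symbols were found for 31669 of 31771 identifiers, and positions were taken from GENCODE M21. CPM were computed from the deposited counts. Calls come from edgeR 4.0.16 under R 4.3.3 (TMM factors, package filter by group, robust quasi-likelihood fit, Benjamini-Hochberg adjustment over 19573 genes at 0.05). Each SE was derived from the F statistic. Differences of single animals and profile distances used log2 CPM with a prior count of 2. Separate animals were the replicates, numbered in accession order. Alternatives were DESeq2 1.42.0, limma-voom (limma 3.58.1), other scalings and filters, sex as a term (read from Xist and Ddx3y) and each library left out. The procedure was tested on simulated data in which both groups had the same spread between replicates, unlike the groups here. DESeq2 left some adjusted p-values as NA, and Egln3 was among them.

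The 10 genes and the lists were chosen with earlier results of these data known. Named from each list were the 2 genes with the smallest p called in each direction and the most abundant gene not called, and for each of the 10 genes its nearest profile among genes whose average log2 CPM reached 2. Hif1an, Vhl, Ldha, Mxi1, Angptl4, Slc2a1, Car9, Car12, Angpt1, Kdr, Id1, Smad4, Ptch1, Sesn2, Psat1, Eif2ak1, Erfe, Gfi1b, Kit, Nr3c1, Epo, Epor, Emcn, Cldn5, Tek, Pf4, Itga2b, Vwf, Pecam1, Egfl7, Cdh5 and Tlx1 were named after their values were seen. So were Pdgfrb, Col1a1 and Ppbp. Bmp5, Bmpr1b and Shh of the lists were not analysed here. Counting limits cover counting error only.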

Additional observations from a re-analysis of the deposited data

How the results depend on the processing

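Of the 10 genes, the number called lower was 1 in the main analysis, 3 by DESeq2 (Epas1, Smad5 and Bmp4), 0 with sex as a term and 0 to 2 with 1 library left out. Over all genes DESeq2 called 2841 higher and 2809 lower, limma-voom with separate group variances called 786 lower, and with 1 library left out the counts ranged from 4 to 2794 higher and from 119 to 3137 lower, the lowest without a WT spleen and the highest without mutant 2. Of the pathway genes, DESeq2 called 37 higher and 25 lower. Limma-voom with separate group variances called 6 lower, sex as a term 4 lower, and leaving out 1 library gave 0 to 30 higher and 1 to 33 lower. The cause of these shifts was not tested.

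The log2 fold change with 1 library left out ranged from -1.53 to -1.10 for Epas1, -0.94 to -0.40 for Hif1a, 0.85 to 4.42 for Egln3, -0.31 to 0.33 for Egln1, -0.64 to 0.16 for Vegfa, -1.26 to -0.72 for Bmp4, -0.48 to -0.38 for Smad5, -0.62 to -0.06 for Kitl, -0.31 to 0.75 for Gdf15 and -0.30 to 0.65 for Ihh. Epas1 was -1.38 (adjusted p = 0.0909) with sex as a term. By DESeq2 Bmp4 was -0.96 and Smad5 -0.41, past the threshold. Egln1 was -0.05 with upper-quartile factors and -0.02 by both limma-voom fits, Gdf15 -0.02 by both, Vegfa 0.65 and Ihh -0.05 with sex as a term, and Ihh -0.00447 with upper-quartile factors. Among genes with the nearest profiles, Adnp2 was -0.03 with upper-quartile factors and Akap12 0.58 with sex as a term. With 1 library left out, the values that changed sign ranged from -0.25 to 0.00933 for Atf4, -0.28 to 0.34 for Adnp2, -0.58 to 0.13 for Akap12, -0.54 to 0.00517 for Phldb2, -0.04 to 1.04 for Cd5l and -0.30 to 0.48 for Gnpda1. Upper-quartile scaling moved the median of all genes to 0.00, against 0.10 in the main analysis. No paired analysis was possible because the labels give no replicate numbers that link mutant and WT animals.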
